A study of Mus musculus with 17 samples.

Results

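The genes described here encode the machinery of mitosis, that is, the mitotic kinases, the chromosomal passenger complex, the spindle assembly checkpoint, the kinetochore, the motors and other proteins of the spindle, and the proteins of cytokinesis. They were chosen by symbol and comprise 43 of the 21848 genes listed in all pools of cells. In every comparison over all cells, each of the 43 passed the filter on low counts. The genes lie on 14 chromosomes and were placed in 10 groups by role.

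The study sequenced germinal centre (GC) B cells of mouse lymph nodes with droplet-based 5′ single-cell RNA sequencing, in which each captured transcript carries a unique molecular identifier (UMI) and each mouse is marked by hashtag antibodies. The mice were males and females of 5 to 12 weeks on the C57BL/6 background. CD45.1/1 hosts primed with ovalbumin (OVA) received B cells carrying the B1-8hi receptor, which binds the hapten NP, and were immunized in the footpad with NP-OVA. At 7 days after immunization some received anti-DEC-OVA, an antibody to DEC-205 (encoded by Ly75) coupled to OVA, which leads B cells that carry DEC-205 to present OVA to T follicular helper cells, and the comparison with untreated mice asks what happens in cells driven into rounds of division in the dark zone, the compartment of the GC where B cells divide.

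The time course, taken on days 7, 9 and 10, that is, 0 h, 48 h and 72 h after treatment, held 9 mice at the start, 9 treated mice with 6 untreated controls at 48 h and 7 treated mice with 8 untreated controls at 72 h. These mice came from a larger experiment of 25 mice and a smaller one of 14, each sequenced as 1 pool with mice of all 5 groups. The CDK2 sort held 7 mice with assigned cells out of 9 listed, as the hashtags of the other 2 held almost no UMIs and a hashtag with cells belonged to no listed mouse. The 7 were all treated with anti-DEC-OVA and taken at 72 h, and their sorted cells carried the Rosa26 DHB-tdTomato reporter. This reporter stays in the nucleus when the kinase CDK2 is inactive and leaves for the cytoplasm when CDK2 is active, so that cells sorted by image as nuclear (N) are called CDK2-low and cells sorted as cytoplasmic (C) CDK2-high. Each sorted population was sequenced as 1 library, so that the library and the CDK2 state cannot be told apart. An earlier experiment, here called the first experiment, held 3 mice at day 7, 3 untreated mice at day 10 and 3 treated mice at day 10. Its donor cells were a mixture, of which a minority carried DEC-205 and an mCherry reporter that is diluted by division while the rest were Ly75-/-, and the treated cells had been sorted for low mCherry, that is, for many divisions. The groups as models have limits. The pairing of heavy and light chain genes that marks the transferred B1-8hi cells was found in 32.2% to 77.7% of the cells of a time-course mouse, 52.8% to 68.2% of those of a sorted sample and 583 of 10681 cells of the first experiment. The cells without it were kept unless stated. The study also compares numbers of DEC-205+ and DEC-205- B1-8hi cells in the time-course mice, so that these hosts too held both kinds of donor cell. The study's text describes the time-course cells of treated mice and of their controls as DEC-205+, which the labels do not give mouse by mouse, and the assignment of mice to groups rests on the authors' list of mice.

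In mitosis, Aurora and Polo-like kinases drive assembly of the bipolar spindle, and kinetochores, built on the centromere, attach each chromosome to its microtubules. Kinetochores without microtubules hold the spindle assembly checkpoint active, which restrains the anaphase-promoting complex (APC/C) and its activator Cdc20 until all chromosomes are attached. Transcripts of these genes rise late in the cell cycle, from S phase into G2 and M, under the MuvB complex with B-MYB and FOXM1, while in G0 the same complex, with other partners, represses them through a promoter element called the cell-cycle genes homology region (CHR). GC B cells are among the fastest dividing cells of the body, and a gene group of this kind is therefore read here against the share of cells in each phase.

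The promoters of the 43 genes are shown first, and their part in the differences given below was not tested. RefSeq windows on GRCm38.p6, of 250 bases before to 50 bases after each annotated start, were given for 38 members, and Aurkb, Incenp, Spc24, Kif20a and Tpx2 had none. The letters searched were TTTGAA and TTCGAA for the CHR, CCAAT for the CCAAT box and GGCGG for a GC box, on both strands, so that a CHR can also read TTCAAA and a CCAAT box ATTGG, and matches of different motifs were allowed to overlap. A CHR match lay in the windows of 30 of the 38 members (78.9%) and of 21.7% of all 27018 genes with a window. Within 50 bases of the start, a CHR match lay in 27 members (71.1%) and in 6.11% of all genes. CCAAT lay in 27 members (71.1%) and in 41.1% of all genes, and a window held both a CHR match and CCAAT in 24 members (63.2%) and in 8.61% of all genes. GGCGG lay in 34 members (89.5%) and in 51.2% of all genes. A match is a description of the letters and not a site of binding. The stretches below run 5′ to 3′ on the strand of the gene and hold the 90 bases that end just before the start, with CHR and CCAAT matches in capitals, for 6 members, from the APC/C, the checkpoint, the kinesins and the chromosome proteins, whose CHR match lies upstream, of which Kif15 is shown as one with no CCAAT in this stretch.
Cdc20, chr4:118437344-118437433, minus strand: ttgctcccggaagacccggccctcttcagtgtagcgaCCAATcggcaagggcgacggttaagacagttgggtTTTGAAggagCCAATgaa
Ube2c, chr2:164769839-164769928, plus strand: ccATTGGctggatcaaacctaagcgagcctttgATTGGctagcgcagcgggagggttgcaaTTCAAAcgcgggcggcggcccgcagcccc
Bub3, chr7:131560280-131560369, plus strand: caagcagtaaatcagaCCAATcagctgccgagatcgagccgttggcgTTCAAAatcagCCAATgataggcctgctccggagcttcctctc
Kif11, chr19:37376292-37376381, plus strand: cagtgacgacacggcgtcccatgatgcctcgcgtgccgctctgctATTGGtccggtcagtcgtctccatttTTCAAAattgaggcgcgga
Top2a, chr11:99024190-99024279, minus strand: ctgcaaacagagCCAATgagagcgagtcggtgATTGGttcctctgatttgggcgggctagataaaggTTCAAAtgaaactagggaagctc
Kif15, chr9:122950991-122951080, plus strand: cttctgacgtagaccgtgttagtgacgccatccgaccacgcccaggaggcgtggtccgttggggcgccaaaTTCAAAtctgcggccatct
Cdc20, the activator that the checkpoint holds back, has its CHR match between CCAAT matches, as does Bub3, a scaffold of the checkpoint. Ube2c, the E2 enzyme that works with the APC/C, has CCAAT matches on the reverse strand and 1 CHR match. In other members the CHR match lay across or after the start. For these, 30 bases around the match are shown in the same way, again with the matches in capitals.
Plk1, chr7:122159453-122159482, plus strand: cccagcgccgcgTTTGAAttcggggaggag
Aurka, chr2:172370521-172370550, minus strand: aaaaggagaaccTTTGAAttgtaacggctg
Bub1, chr2:127831828-127831857, minus strand: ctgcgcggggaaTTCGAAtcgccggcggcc
Cenpf, chr1:189688067-189688096, minus strand: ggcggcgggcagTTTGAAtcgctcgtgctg
Knl1, chr2:119047138-119047167, plus strand: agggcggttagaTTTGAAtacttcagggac
Bub1 holds the TTCGAA form. Plk1, Aurka, Bub1, Cenpf and Knl1 recur below with their values.

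After filtering, 13625 cells of the larger experiment, 10073 of the smaller, 7448 CDK2-high, 4385 CDK2-low and 10681 cells of the first experiment could be assigned to a mouse. A time-course mouse held 292 to 1045 cells and 1984430 to 13373200 UMIs, of which 9885 to 156258 fell on the 43 genes. A sorted sample held 3988730 to 20394900 UMIs and a mouse of the first experiment 349784 to 4728690, so that the first experiment gives the least precise values. Treated cells at 48 h also held more UMIs than untreated ones, with medians of 13911 against 6942 per cell in the larger experiment and 11475 against 5190 in the smaller. Cell barcodes shared between pools numbered 43 for the 2 time-course experiments and 5 for the 2 sorted populations. Summed markers of GC B cells lay at 2420 to 4410 CPM in time-course mice, and those of T cells at no more than 22.2 CPM. CPM is the UMI count of a gene after scaling each mouse by its total and by the TMM factor of edgeR. One 0 h mouse of the larger experiment stood apart, with 0.498% of its UMIs on the 43 genes against 0.705% to 1.04% in the other 8, and the counts of members called in the time course over all cells were the same without it, an alternative added after the data were seen.

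All 43 genes were higher in GC B cells 48 h after anti-DEC-OVA than in untreated cells of the same day. Together they took 0.93%, 1.04% and 1.19% of the UMIs of a treated mouse (lowest, median and highest of 9) and 0.699%, 0.747% and 1.03% of an untreated one (6 mice). The groups overlapped over both experiments and did not overlap within either, at 0.699% to 0.77% against 0.93% to 1.08% in the larger and 0.955% to 1.03% against 1.12% to 1.19% in the smaller. Per cell, treated mice held 143, 159 and 175 UMIs of the 43 genes and untreated mice 58, 68.4 and 75.6, without overlap, as treated cells also held more UMIs of all genes. The values that follow are relative to the TMM-scaled total of a mouse. In edgeR's quasi-likelihood test with an experiment term, 43 of 43 were higher at an adjusted p under 0.05 and none was lower, against 26.3% of all 10220 genes tested that were called higher. The log2 differences ran from 0.26 to 0.73 with a median of 0.47, where the median over all genes tested was within 0.02 of 0. Standard errors ran from 0.06 to 0.11. These are sums over the cells of a mouse, in which more cells in mitosis and more RNA of a gene per cell cannot be told apart, and for that reason values by cell-cycle class are given further on. The same mice differed in other markers. Summed light-zone markers lay at 400 to 578 CPM in treated and 725 to 923 CPM in untreated mice at 48 h, with 7 of 8 markers lower, naive and memory B cell markers at 101 to 207 against 224 to 413 CPM, with 3 of 6 lower, and T cell markers at 0.398 to 4.8 against 5.98 to 9.09 CPM, with 3 of the 3 tested lower. Other lists moved both ways, with 5 of 8 GC B cell markers lower and 2 higher, 2 of 4 dark-zone markers lower and 1 higher, and 1 of 5 plasma cell markers lower and 1 higher, whose sum lay at 1210 to 2040 against 740 to 1530 CPM. The part of these differences in the result was not tested.

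**Figure D1:**
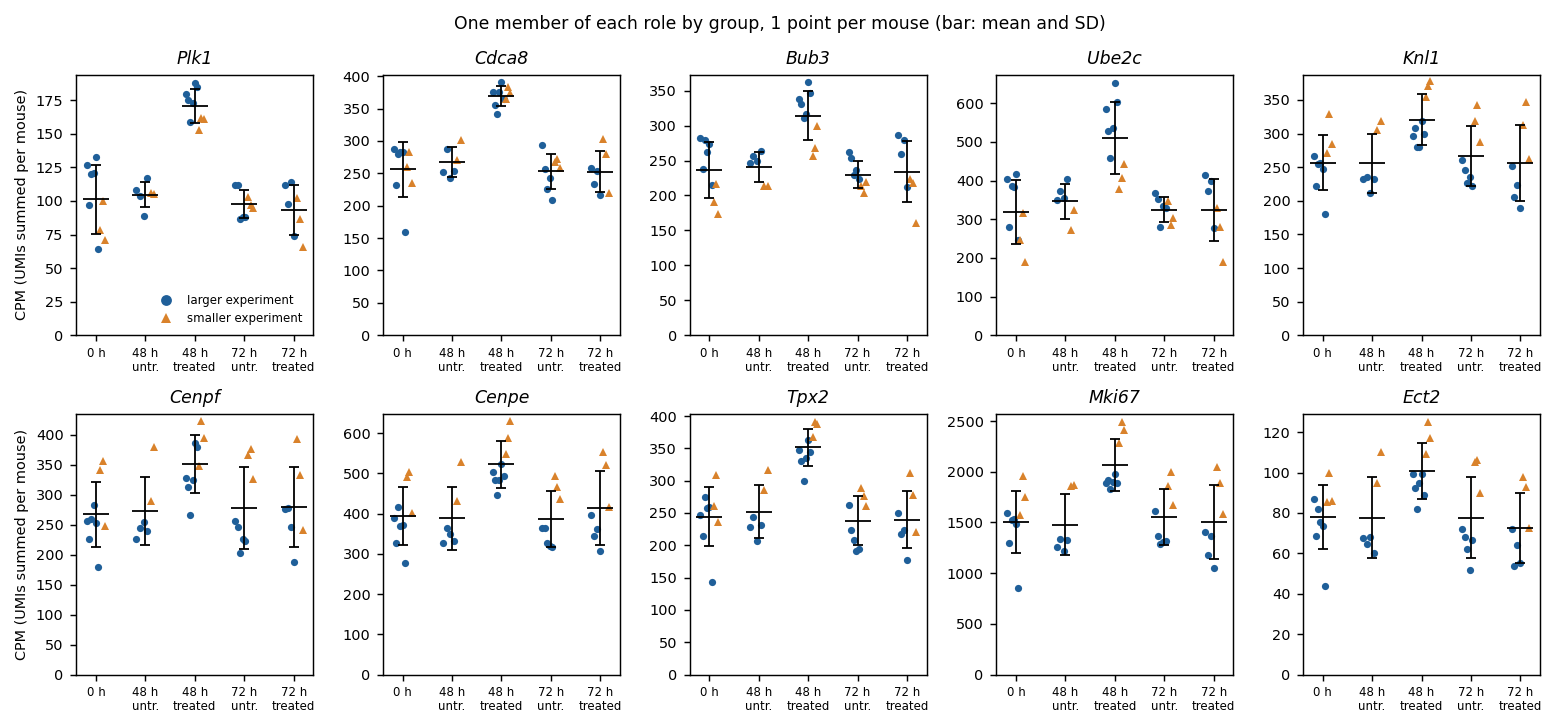
CPM of 10 members, 1 for each role, in the 5 groups of the time course (horizontal axis), with 1 point per mouse, circles for the larger and triangles for the smaller experiment, and bars for the mean and SD on a linear axis from 0. The mean of the 48 h treated mice is the highest for each member, with Plk1 at 153 to 188 CPM against 88.8 to 117 CPM in untreated mice at 48 h. For some members, such as Cenpf, single mice of other groups overlap with them, and the 72 h groups overlap.

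The mitotic kinases had the largest differences of the 10 groups by median (0.71 on the log2 scale, 2 members). Plk1, the Polo-like kinase of mitotic entry and kinetochore attachment, lay at 88.8, 105 and 117 CPM (lowest, median and highest) in untreated mice and at 153, 173 and 188 CPM in treated mice at 48 h. No treated mouse overlapped with an untreated one, and Plk1 was 1.62-fold higher (log2 difference 0.70 ± 0.10 SE, adjusted p = 2.8e-07, edgeR). Aurka, the Aurora kinase of centrosomes and spindle poles, lay at 56.3, 62.9 and 70.4 CPM in untreated and 88.6, 107 and 118 CPM in treated mice, again without overlap, and was 1.65-fold higher (0.73 ± 0.10 SE, adjusted p = 1.33e-07, edgeR).

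The 4 genes of the chromosomal passenger complex rose by 0.46 to 0.57 on the log2 scale. This complex corrects wrong attachments of chromosomes through its kinase Aurkb, which rose 1.48-fold (0.57 ± 0.10 SE, adjusted p = 4.79e-06, edgeR). Cdca8, the borealin subunit that holds the complex on chromatin, lay at 243, 262 and 302 CPM in untreated and 342, 374 and 391 CPM in treated mice. These values did not overlap, and Cdca8 was 1.38-fold higher (0.46 ± 0.08 SE, adjusted p = 4.68e-06, edgeR). Birc5 (survivin) and Incenp, the subunits that bind Cdca8 and activate Aurkb, differed by 0.54 and 0.46.

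The 5 genes of the spindle checkpoint rose by 0.30 to 0.59. Bub1, the kinase that brings checkpoint proteins and shugoshin to the kinetochore, lay at 56.3, 66.9 and 86.9 CPM in untreated and 94.8, 103 and 119 CPM in treated mice, without overlap, and was 1.51-fold higher (0.59 ± 0.10 SE, adjusted p = 1.14e-05, edgeR). Bub3, which docks Bub1 and Bub1b on Knl1, lay at 213, 248 and 263 CPM in untreated and 257, 317 and 363 CPM in treated mice and was 1.31-fold higher (0.38 ± 0.06 SE, adjusted p = 3.78e-06, edgeR). The Bub3 ranges overlapped over both experiments and were apart within each, at 246 to 263 against 311 to 363 CPM in the larger and 213 to 214 against 257 to 299 CPM in the smaller. Mad2l1, which binds Cdc20 to form the inhibitor of the APC/C, rose by 0.47 ± 0.06 SE (adjusted p = 1.41e-07, edgeR), and Bub1b, another part of that inhibitor, rose least of the group (0.30 ± 0.08 SE, adjusted p = 0.00146, edgeR). Of the APC/C genes that the checkpoint acts on, Cdc20 was 1.46-fold higher (0.54 ± 0.09 SE, adjusted p = 2.41e-06, edgeR). Ube2c lay at 272, 353 and 405 CPM in untreated and 378, 527 and 651 CPM in treated mice. Its ranges were apart within the larger (350 to 405 against 459 to 651 CPM) and the smaller experiment (272 to 324 against 378 to 443 CPM), and it was 1.46-fold higher (0.55 ± 0.11 SE, adjusted p = 6.2e-05, edgeR).

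The outer kinetochore, which binds microtubules through the Ndc80 complex and Knl1, rose in all 5 members measured (median 0.47). Nuf2, a subunit of the Ndc80 complex, lay at 61.7, 68.9 and 88.8 CPM in untreated and 94, 105 and 123 CPM in treated mice, without overlap, and was 1.5-fold higher (0.58 ± 0.09 SE, adjusted p = 6.41e-07, edgeR). Knl1, the scaffold on which checkpoint proteins gather, lay at 211, 235 and 318 CPM in untreated and 280, 309 and 378 CPM in treated mice. The groups were apart for Knl1 within the larger (211 to 236 against 280 to 319 CPM) and the smaller experiment (305 to 318 against 355 to 378 CPM), and it was 1.26-fold higher (0.33 ± 0.06 SE, adjusted p = 3.86e-05, edgeR).

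The genes of the centromere and of the protection of cohesion, the ring that holds sister chromatids together, had a median of 0.38 over 5 members. Cenph, a subunit of the constitutive inner kinetochore, had the lowest adjusted p of all 43, with 40.3, 46.9 and 60.4 CPM in untreated and 66, 73.2 and 77 CPM in treated mice. The Cenph values did not overlap, and it was 1.48-fold higher (0.57 ± 0.07 SE, adjusted p = 4.57e-08, edgeR). Cenpf, a large protein of the outer corona that is degraded after mitosis, lay at 226, 250 and 379 CPM in untreated and 267, 348 and 423 CPM in treated mice, and was 1.3-fold higher (0.38 ± 0.10 SE, adjusted p = 0.00122, edgeR). Its ranges overlapped in the smaller experiment (290 to 379 against 348 to 423 CPM) and not in the larger (226 to 255 against 267 to 387 CPM). Sgo2a, a shugoshin that shields centromeric cohesin, lay at 71.8, 77.9 and 119 CPM in untreated and 111, 121 and 139 CPM in treated mice and was 1.42-fold higher (0.50 ± 0.09 SE, adjusted p = 1.91e-05, edgeR), with ranges apart in the larger (71.8 to 78 against 111 to 123 CPM) and the smaller experiment (103 to 119 against 129 to 139 CPM).

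The 12 kinesins, the motors that separate spindle poles, move chromosomes and shape the midzone, rose by 0.26 to 0.57 (median 0.44). Cenpe, the motor that carries chromosomes to the metaphase plate, lay at 328, 356 and 528 CPM in untreated and 445, 503 and 630 CPM in treated mice. Its ranges were apart within each experiment (328 to 364 against 445 to 524 CPM, and 430 to 528 against 548 to 630 CPM), and it was 1.36-fold higher (0.44 ± 0.07 SE, adjusted p = 1.48e-06, edgeR). Kif11, which pushes the spindle poles apart, and Kif2c, which depolymerizes microtubules at faulty attachments, rose by 0.55 and 0.57, and Kif23, which bundles the midzone before cytokinesis, rose least of all 43 (0.26 ± 0.08 SE, adjusted p = 0.00549, edgeR). The 4 spindle microtubule proteins rose by a median of 0.49. Tpx2, which activates Aurka and starts microtubule growth around chromosomes, lay at 206, 237 and 317 CPM in untreated and 299, 347 and 391 CPM in treated mice. The Tpx2 ranges were apart in each experiment (206 to 244 against 299 to 363 CPM, and 285 to 317 against 367 to 391 CPM), and it was 1.40-fold higher (0.49 ± 0.09 SE, adjusted p = 1.11e-05, edgeR). Hmmr, which helps to focus spindle poles, rose by 0.59 ± 0.09 SE (adjusted p = 2.14e-06, edgeR).

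Mki67, the coat of mitotic chromosomes known as Ki-67, lay at 1220, 1340 and 1870 CPM in untreated and 1830, 1920 and 2490 CPM in treated mice. Within the larger experiment these were 1220 to 1340 against 1830 to 1980 CPM and within the smaller 1860 to 1870 against 2280 to 2490 CPM, without overlap in either. Mki67 was 1.41-fold higher (0.49 ± 0.08 SE, adjusted p = 4.22e-06, edgeR), and Top2a, the topoisomerase that untangles sister chromatids, rose by 0.50. Both cytokinesis genes rose (median 0.38). Ect2, which activates RhoA at the cleavage furrow, lay at 60.1, 67.9 and 110 CPM in untreated and 81.8, 99.2 and 125 CPM in treated mice. Its ranges were apart in the larger experiment (60.1 to 68.2 against 81.8 to 99.5 CPM) and overlapped in the smaller (95 to 110 against 109 to 125 CPM), and it was 1.31-fold higher (0.39 ± 0.08 SE, adjusted p = 0.000149, edgeR).

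In the larger experiment alone 43 of 43 were called higher at 48 h, where 1846 of 10133 genes were, and in the smaller alone, with 2 untreated and 3 treated mice, 18 were, at a median of 0.31, where 1108 of 10334 genes were called higher. Among cells with the B1-8hi pairing of chains, 42 were called, at a median of 0.36, with 1785 of 9836 genes. With each cell thinned to 2871 UMIs, 42 were called, at a median of 0.54, with 1558 of 9030 genes.

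By 72 h no member differed between treated and untreated mice at an adjusted p under 0.05, where 8.55% of all genes were called in either direction. The log2 differences lay between -0.16 and 0.12, with a median of -0.03, and over all members the 95% intervals reached from -0.32 to 0.30. edgeR gave 0 members at an unadjusted p under 0.05, a threshold at which all genes were not counted. DESeq2 called 0 members, where it called 599 of 10220 genes higher and 398 lower. Plk1 lay at 66.1, 97.5 and 114 CPM in the 7 treated and at 86.6, 95.8 and 112 CPM in the 8 untreated mice, and the groups overlapped (log2 difference -0.05 ± 0.10 SE, adjusted p = 0.86, edgeR). For Aurka the values were 40.2, 60.1 and 71.2 CPM in treated and 47.3, 56.2 and 67.6 CPM in untreated mice, and for Cenph 41.2, 48.5 and 57.3 CPM against 41.4, 53.2 and 61.5 CPM, with overlap for both.

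Within treated mice, all 43 members fell between 48 h and 72 h, against 26.8% of all genes called lower. The log2 differences ran from -0.84 to -0.28 with a median of -0.51. Plk1 fell by 0.84 ± 0.10 SE on the log2 scale (adjusted p = 4.74e-09, edgeR), Aurka by 0.83 ± 0.10 SE (adjusted p = 6.11e-09, edgeR) and Bub1 by 0.70 ± 0.10 SE (adjusted p = 3.95e-07, edgeR). The range of Plk1 at 72 h lay below its range at 48 h, at 66.1 to 114 against 153 to 188 CPM, and so did that of Aurka, at 40.2 to 71.2 against 88.6 to 118 CPM. This comparison shares the treated 48 h mice with the one above. Over the same interval 8 of 8 light-zone markers rose, from 400 to 578 CPM in sum to 620 to 865 CPM. Of 8 GC B cell markers 6 rose and 1 fell, and 3 of 5 plasma cell markers fell. Of 4 dark-zone markers 2 rose and 2 fell. Of 6 naive and memory B cell markers 1 rose and 2 fell, with sums of 101 to 207 CPM at 48 h and 182 to 317 CPM at 72 h. The part of these markers in the result was not tested. The smallest fall was that of Kif18b, a kinesin that works with Kif2c on spindle microtubules (-0.28 ± 0.08 SE, adjusted p = 0.00444, edgeR). In untreated mice no member was called between 0 h and 48 h, where 0.127% of all genes were, nor between 0 h and 72 h, where 4.41% were. For these comparisons edgeR gave 0 members at an unadjusted p under 0.05, where again all genes were not counted. The 95% intervals reached from -0.31 to 0.33 and from -0.31 to 0.25. DESeq2 called 0 members in both, where it called 17 and 246 of 10220 genes higher and 8 and 253 lower.

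The effect of treatment at 48 h minus that at 72 h was tested as an interaction, and it was positive for 41 of the 43 members at an adjusted p under 0.05, against 18.5% of all genes. The median was 0.49 and the range 0.23 to 0.74. It was largest for Plk1 (0.74 ± 0.14 SE, adjusted p = 0.000133, edgeR), Cenph (0.71 ± 0.11 SE, adjusted p = 7.8e-06, edgeR) and Nuf2 (0.70 ± 0.13 SE, adjusted p = 5.72e-05, edgeR). The exceptions were Kif18b (0.28 ± 0.13 SE, adjusted p = 0.0801, edgeR) and Kif23 (0.23 ± 0.11 SE, adjusted p = 0.127, edgeR). The count fell to 5 in the smaller experiment alone, where 430 of 10334 genes were called higher, and to 16 without the experiment term, where 784 of 10220 were.

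**Figure D2:**
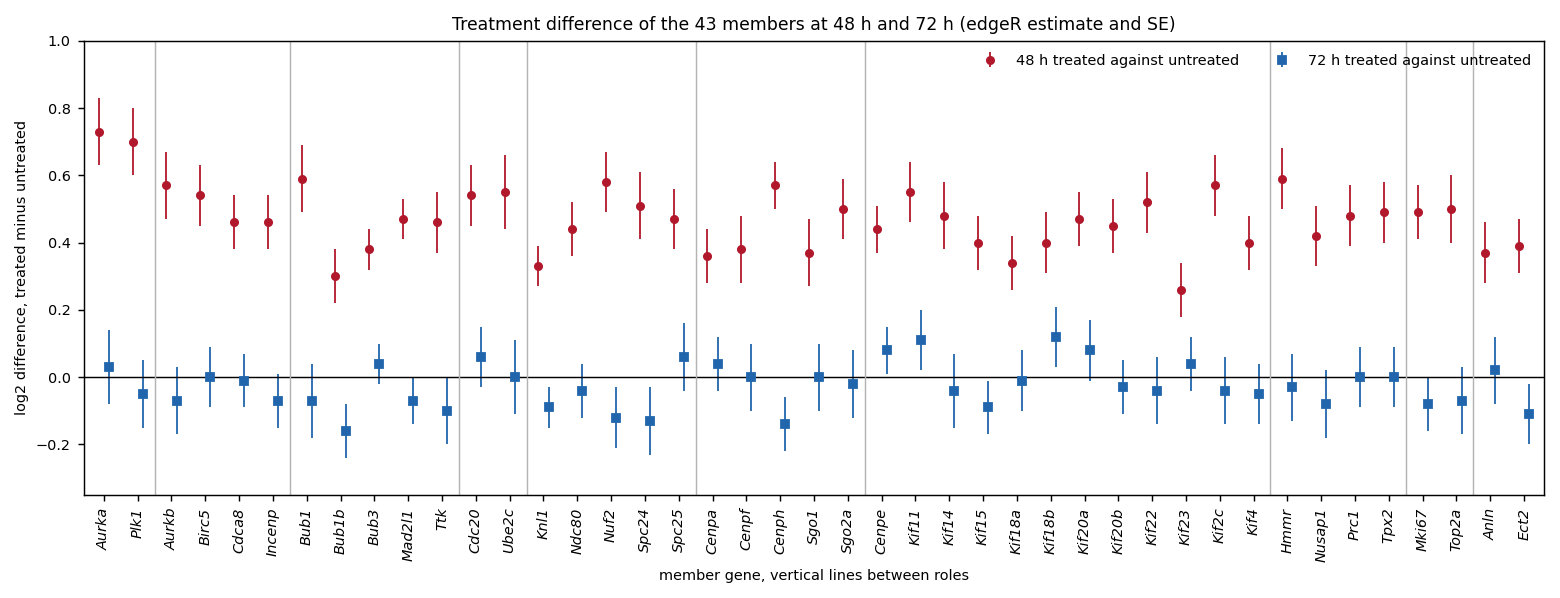
Log2 difference between treated and untreated mice (vertical axis, with bars of 1 SE) for each of the 43 members, grouped by role on the horizontal axis, at 48 h as red circles and at 72 h as blue squares. At 48 h the points lie between 0.26 and 0.73 and at 72 h between -0.16 and 0.12.

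All 43 members were also higher in CDK2-high than in CDK2-low cells of the same treated mice at 72 h, by larger differences. The members took 1.03%, 1.06% and 1.18% of the UMIs of a CDK2-high sample (lowest, median and highest of 7 mice) and 0.158%, 0.189% and 0.225% of a CDK2-low one, without overlap. In edgeR with a term for the mouse, 43 of 43 were called higher, against 36.5% of all 10120 genes called higher and 38.6% called lower. The log2 differences ran from 1.22 to 3.88 with a median of 3.01. CDK2-low samples held more light-zone marker RNA, at 875 to 1090 against 503 to 662 CPM with 8 of 8 markers lower in CDK2-high cells, more naive and memory B cell marker RNA, at 305 to 464 against 106 to 189 CPM, and more dark-zone marker RNA, at 1010 to 1150 against 892 to 981 CPM. Of the markers tested, 2 of 4 for the dark zone and 6 of 8 for GC B cells were lower in CDK2-high cells, and 1 and 2 were higher. Summed myeloid and follicular dendritic cell markers lay at 4.46 to 6.77 CPM in CDK2-high against 7.1 to 21.4 CPM in CDK2-low samples, with 2 of the 2 tested lower. Of 3 plasma cell markers tested, 2 were lower and 1 higher, and their sum lay at 936 to 1170 against 789 to 1040 CPM. Among cells with a higher mean level of dark-zone than of light-zone markers, 43 of 43 were called higher, at a median of 2.92, where 3635 of 9955 genes were. The part of the other marker lists in the result was not tested.

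Sgo2a lay at 108, 124 and 142 CPM in CDK2-high and 5.95, 9.49 and 10.1 CPM in CDK2-low cells and was 14.8-fold higher (3.88 ± 0.07 SE, adjusted p = 1.69e-24, edgeR). Plk1 lay at 123, 130 and 143 CPM against 4.06, 10.6 and 12.5 CPM and was 13.3-fold higher (3.74 ± 0.08 SE, adjusted p = 3.94e-23, edgeR). Cenpf lay at 267, 296 and 370 CPM against 15.8, 25.4 and 31 CPM and was 12.1-fold higher (3.60 ± 0.07 SE, adjusted p = 5.1e-24, edgeR). The populations did not overlap for any of these 3, which had the largest differences of the 43.

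The smallest differences were those of Bub3 and Mad2l1, followed by members such as Cenpa and Knl1. Bub3 lay at 260, 276 and 304 CPM in CDK2-high and 108, 119 and 131 CPM in CDK2-low cells, a 2.32-fold difference (1.22 ± 0.03 SE, adjusted p = 2.25e-22, edgeR). Mad2l1 lay at 132, 137 and 156 CPM against 39.9, 52.6 and 58 CPM, a 2.82-fold difference (1.5 ± 0.04 SE, adjusted p = 1.17e-20, edgeR). Cenpa, the histone H3 variant that marks the centromere in every phase, lay at 212, 217 and 235 CPM against 45.1, 70.7 and 79.2 CPM (1.74 on the log2 scale), and Knl1 at 340, 360 and 402 CPM against 88.5, 89.9 and 104 CPM (1.99). The populations did not overlap for any of these either. Between these ends, Ube2c lay at 288, 315 and 365 CPM against 28.8, 40.4 and 49.3 CPM, a 7.87-fold difference (2.98 ± 0.06 SE, adjusted p = 1.63e-23, edgeR). Mki67, often used as a marker of dividing cells, lay at 2210, 2290 and 2450 CPM against 392, 420 and 532 CPM, a 5.32-fold difference (2.41 ± 0.03 SE, adjusted p = 1.04e-28, edgeR). For Cdca8 the values were 347, 359 and 366 CPM against 39, 57.1 and 73.2 CPM, for Cenpe 563, 604 and 692 CPM against 62.9, 86 and 90.2 CPM, for Tpx2 308, 330 and 366 CPM against 27, 41.3 and 50.2 CPM and for Ect2 87, 91.3 and 122 CPM against 10.7, 12.4 and 15.9 CPM.

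By role, the log2 differences in the CDK2 sort had medians of 3.51 in the mitotic kinases, 3.19 in the spindle microtubule proteins, 3.02 in the outer kinetochore, 3.01 in the kinesins, 2.94 in the passenger complex and in the centromere group, 2.84 in cytokinesis, 2.83 in the APC/C genes, 2.76 in the checkpoint and 2.72 in the chromosome proteins. The spread was widest within the centromere group (1.74 to 3.88) and the checkpoint (1.22 to 3.32), and in both of these roles the members differed more from each other than the medians of the 10 roles did.

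**Figure D3:**
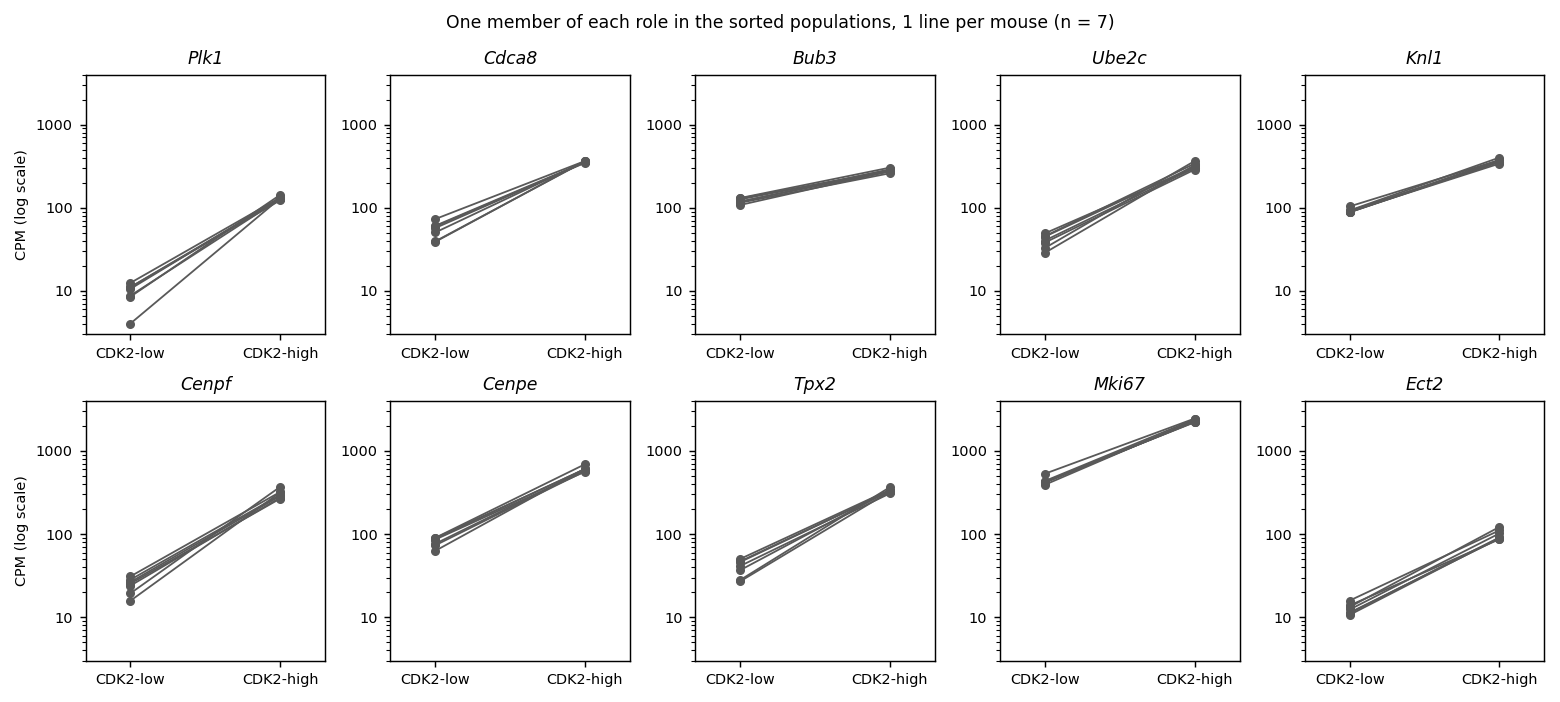
CPM of 10 members, 1 for each role, in CDK2-low (N) and CDK2-high (C) cells on a common log axis, with 1 line for each of the 7 mice. Every line rises, from 4.06 to 12.5 CPM to 123 to 143 CPM for Plk1 and from 108 to 131 CPM to 260 to 304 CPM for Bub3.

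To set these differences beside the share of cells in each phase, cells were classed as G0-G1, S or G2-M from published lists of phase genes after removal of all members, which left 43 S and 30 G2-M genes. At 48 h, 15.5%, 20.9% and 24.2% of the cells of a treated mouse were in the G0-G1 class against 44%, 52.9% and 57.6% in untreated mice. The S class held 40%, 43.4% and 46.7% against 22.3%, 25.1% and 31.8%, and the G2-M class 32.4%, 35% and 41.5% against 20.1%, 21.6% and 29.9%. None of the 3 classes overlapped between the groups. The differences, averaged within experiment, were -31.1, 17.8 and 13.4 percentage points (exact permutation test within experiments, two-sided p = 0.000476 for each, the smallest this design allows, and 0.00143 adjusted over 18 tests). With each cell thinned to 2871 UMIs, which left 21331 of 23698 cells, they were -28.2, 15.2 and 13.0 points. At 72 h the shares differed by -1.01, -0.717 and 1.73 points (exact permutation test, two-sided p = 0.744, 0.68 and 0.357), and the G2-M class held 18.5% to 31.9% in treated and 16.3% to 29.3% in untreated mice. In the sort, the G0-G1 class held 7.39%, 9.23% and 13.1% of CDK2-high and 70.5%, 77.6% and 81.8% of CDK2-low cells, the S class 39.9%, 44.5% and 51% against 15.8%, 19.1% and 24.6%, and the G2-M class 41.4%, 45.5% and 52.7% against 1.52%, 2.96% and 4.86%. These were differences of -67.5, 25.4 and 42.1 points (exact sign-flip permutation test over 7 mice, two-sided p = 0.0156, the smallest it allows, and 0.0312 adjusted).

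**Figure D4:**
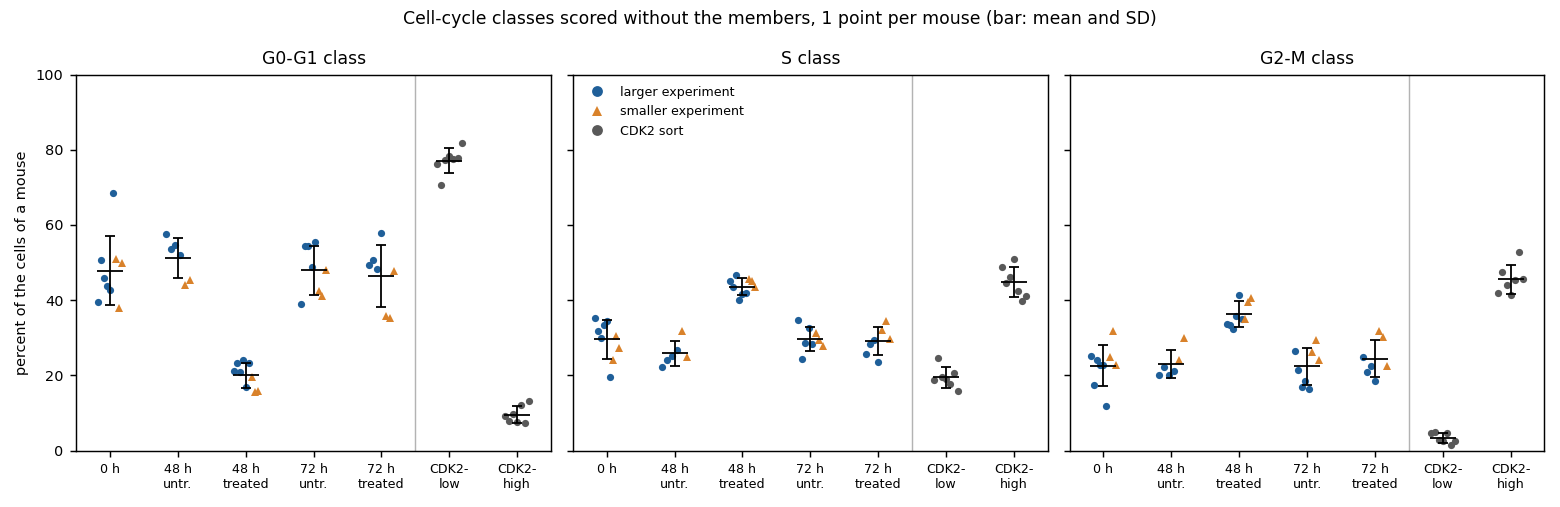
Percentage of cells in the G0-G1, S and G2-M classes (1 panel each) in the 5 groups of the time course and the 2 sorted populations, with 1 point per mouse. Cells of the time course and of the sort were classed in separate runs. Treated mice at 48 h have 15.5% to 24.2% of cells in G0-G1 and 32.4% to 41.5% in G2-M, CDK2-low cells have 70.5% to 81.8% in G0-G1, and CDK2-high cells have 7.39% to 13.1% in G0-G1 and 41.4% to 52.7% in G2-M.

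The level of each member in each class was taken from the 9 mice at 0 h, before treatment. Of the 43 members, 42 had their highest mean CPM in the G2-M class, and each of these did so in each of the 9 mice. The exception was Cenph, which was highest in the S class, at 79.3 CPM against 56.8 CPM in G2-M and 4.58 CPM in G0-G1. The ratio of G2-M to G0-G1 ran from 3.58 for Bub3 (429 against 120 CPM) to 116 for Sgo2a (222 against 1.92 CPM, the latter from 25 UMIs in all), with a median of 23.3. Plk1 lay at 270 CPM in G2-M, 52.7 CPM in S and 4.13 CPM in G0-G1, and Aurka at 160, 31.4 and 2.71 CPM. Cenpf and Ube2c rose late, with 801 and 925 CPM in G2-M against 69 and 87.5 CPM in S. Mad2l1 and Mki67 were already high in S, with 128 CPM in S against 161 CPM in G2-M for Mad2l1 and 1520 against 2860 CPM for Mki67. As the classes come from other genes of the same cells and free RNA was not estimated, the low G0-G1 values are not read as expression in that phase.

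The order of the members by this ratio resembled their order in the CDK2 sort. Across the 43 members, the log2 ratio of G2-M to G0-G1 at 0 h and the log2 difference between CDK2-high and CDK2-low cells had a Pearson r of 0.931 and a Spearman rho of 0.906, in different mice and pools. For the 48 h difference over all cells the same ratio gave an r of 0.434 and a rho of 0.446, and the 48 h and CDK2 differences had an r of 0.387 and a rho of 0.433. Members share cells, libraries and depth and are not replicates, so these values describe the list and carry no test. Sgo2a, Plk1 and Cenpf, with ratios of 116, 65.5 and 34.3, had the largest CDK2 differences, and Bub3 and Mad2l1, with ratios of 3.58 and 5.34, the smallest. The orders were not the same at the top. Aurka, with a higher ratio than Cenpf (59.1), had a smaller CDK2 difference (3.29 against 3.60).

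The comparisons were then made within each class. In the G2-M class at 48 h the members had a median log2 difference of 0.01, against 0.47 over all cells. Of the 43 members, 4 were called higher, against 7.78% of all genes, namely Cenph (0.31 ± 0.08 SE, adjusted p = 0.00953, edgeR), Aurka (0.25 ± 0.06 SE, adjusted p = 0.00489, edgeR), Plk1 (0.21, adjusted p = 0.0121, edgeR) and Aurkb (0.20, adjusted p = 0.0434, edgeR). Bub1b (-0.15, adjusted p = 0.0451, edgeR) and Kif23 (-0.22, adjusted p = 0.00633, edgeR) were lower, against 6.11% of all genes, and without the filter on low counts Bub1b was not called (-0.14, adjusted p = 0.164, edgeR). In the S class 18 of 43 were higher, against 7.56% of all genes, with a median of 0.16, and 23 were without the filter, where 851 of 15352 genes were. The largest were Ube2c (0.64 ± 0.08 SE, adjusted p = 1.95e-07, edgeR), Cdc20 (0.59, adjusted p = 4.61e-06, edgeR) and Hmmr (0.53, adjusted p = 8.42e-06, edgeR), followed by Aurka (0.52, adjusted p = 0.00108, edgeR), Cenpa (0.47, adjusted p = 0.000163, edgeR) and Plk1 (0.46, adjusted p = 0.00117, edgeR), while Kif18a, Bub1b and Sgo1 lay at -0.01, -0.01 and 0.00. Across the 43 members, the ratio of G2-M to S at 0 h and this S-class difference had an r of 0.67 and a rho of 0.615, against 0.104 and 0.131 for the 48 h difference over all cells.

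In the G0-G1 class, where counts were lowest, 34 of the 43 members passed the filter at 48 h and 12 were higher, against 4.62% of all genes. Mki67 (0.58 ± 0.07 SE, adjusted p = 1.48e-07, edgeR), Ube2c (0.79 ± 0.11 SE, adjusted p = 6.88e-06, edgeR), Cdca8 (0.76, adjusted p = 9.38e-06, edgeR) and Birc5 (1.0, adjusted p = 1.02e-05, edgeR) had the lowest adjusted p. Members that passed the filter only through the treated group had to differ, so a fit of all 43 without the filter was added after the data were seen, and it called 13, where 433 of 15122 genes were called higher. At 72 h, 4 members were higher in the G0-G1 class, against 3.96% of all genes, namely Ube2c (0.60, adjusted p = 0.000243, edgeR), Mki67 (0.31, adjusted p = 0.00216, edgeR), Birc5 (0.57, adjusted p = 0.0124, edgeR) and Bub3 (0.22, adjusted p = 0.0295, edgeR). Without the filter, where 315 of 15122 genes were higher, 4 were called there too, with Cdc20 (0.58, adjusted p = 0.0465, edgeR) and without Bub3 (0.22, adjusted p = 0.0664, edgeR). None was called in the S class (4.67% of all genes) or the G2-M class (3.11%), where edgeR gave 7 and 3 members at an unadjusted p under 0.05. The share of all genes at that unadjusted threshold was not counted. Without the filter Mki67 was called lower in the S class (-0.14 ± 0.04 SE, adjusted p = 0.0319, edgeR). Neither DESeq2 nor thinned cells were used within classes, so the part of the depth per cell in these differences was not tested.

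In the CDK2 sort most of the members tested were higher within each class. In the S class 43 of 43 were higher in CDK2-high cells, against 24.8% of all genes, with a median of 1.59. Cenpf (2.72 ± 0.11 SE, adjusted p = 2.09e-24, edgeR) and Plk1 (2.29 ± 0.10 SE, adjusted p = 4.2e-24, edgeR) stood high and Bub3 low (0.58 ± 0.04 SE, adjusted p = 1.36e-15, edgeR). In the G0-G1 class 33 members passed the filter and 26 were higher, against 18.9% of all genes, and 31 of 43 were without the filter, where 1556 of 14496 genes were. In the G2-M class 40 were higher, against 13.2%, with a median of 1.17, and Top2a (2.29), Anln (2.24), a scaffold of the contractile ring, and Nusap1 (2.19), which bundles spindle microtubules, led. Cdc20 (-0.39, adjusted p = 0.00189, edgeR) and Cenpa (-0.54, adjusted p = 1.17e-05, edgeR) were lower in CDK2-high cells of this class, against 8.27% of all genes. This last fit holds 10 samples, as only 3 CDK2-low samples held 20 cells or more in the G2-M class, with 46, 27 and 52. With the mouse term, its differences rest on the 3 mice that had both populations.

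**Figure D5:**
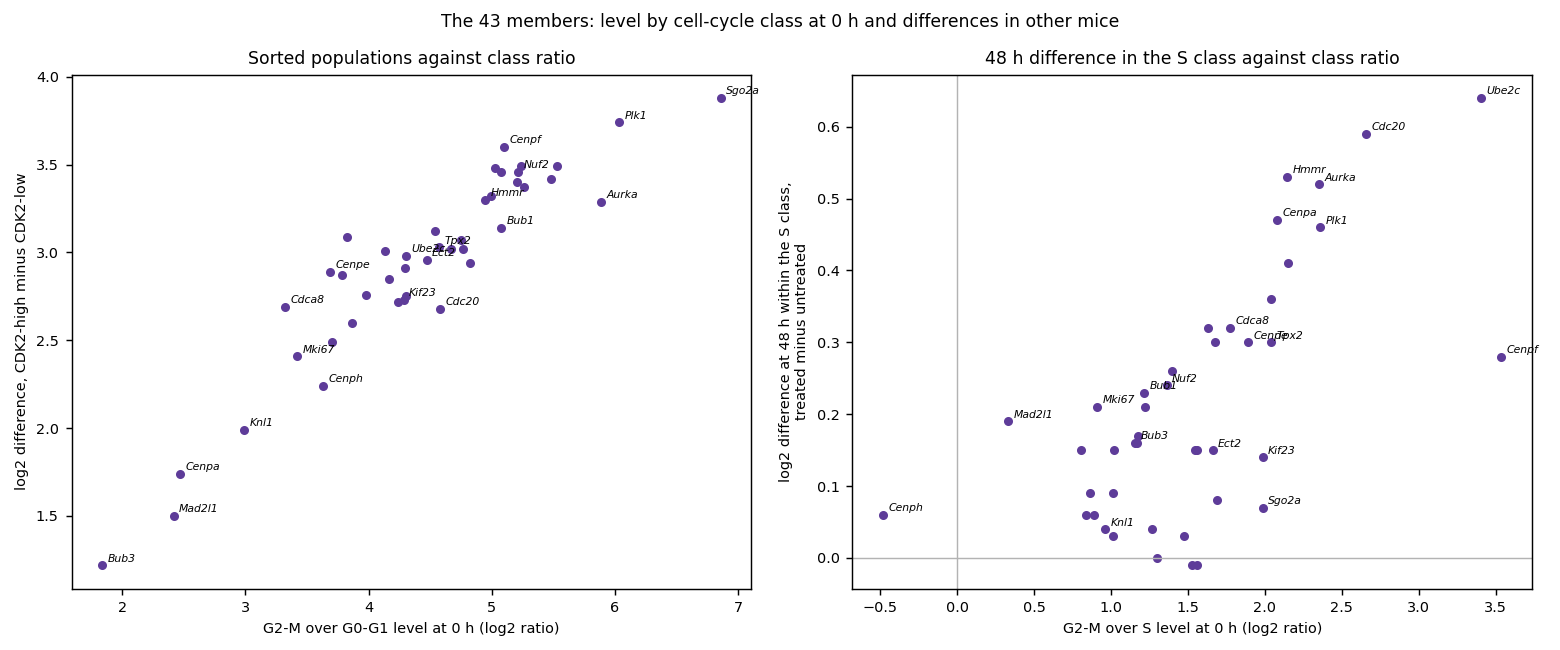
Each point is 1 of the 43 members. Left, log2 ratio of CPM in the G2-M class to the G0-G1 class at 0 h (horizontal) against the log2 difference between CDK2-high and CDK2-low cells (vertical, r = 0.931). Right, log2 ratio of the G2-M to the S class at 0 h against the log2 difference between treated and untreated mice at 48 h within the S class (r = 0.67).

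Other genes of the pathway, 92 in 9 lists that hold no member, were tested in the same fits. At 48 h, 79 were higher and 1 was lower, where 26.3% of all genes were higher. All 8 condensin genes (median 0.40) and all 15 replication genes (0.51) were higher, as were 7 of 8 genes of mitotic entry (0.44), 11 of 14 of the inner kinetochore (0.38), 11 of 12 of the Mis12, RZZ and Ska complexes (0.43), 8 of 10 of the centrosome and spindle (0.35), 3 of 5 of cohesin (0.24) and 3 of 3 of checkpoint silencing and Mad1 (0.23). Ccnb1, the cyclin of mitosis, rose by 0.66 ± 0.09 SE (adjusted p = 1.83e-07, edgeR) and Cdk1, its kinase, by 0.58 ± 0.10 SE (adjusted p = 4.86e-06, edgeR). The APC/C subunits and separase rose least, with 13 of 17 higher and a median of 0.16. In the CDK2 sort 90 of 92 were higher, where 36.5% of all genes were, with medians from 0.50 in the APC/C and separase list and 1.29 in replication to 2.36 in mitotic entry. At 72 h 3 of the 92 were called, where 8.55% of all genes were. One was higher, Anapc16, an APC/C subunit (0.15, adjusted p = 0.0407, edgeR), and 2 were lower, Tyms, the thymidylate synthase (-0.27, adjusted p = 0.0361, edgeR), and Pttg1.

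Pttg1 encodes securin, the inhibitor of separase that the APC/C destroys at anaphase, and was singled out after its values were seen as the 1 gene of these lists that was lower at 48 h. It lay at 88.6, 100 and 109 CPM in untreated and 49.1, 53 and 65.8 CPM in treated mice at 48 h, and at 83.9, 97.7 and 117 CPM in untreated and 35.3, 49.5 and 55 CPM in treated mice at 72 h. The groups did not overlap at either time. Pttg1 fell by 0.85 ± 0.08 SE on the log2 scale at 48 h (adjusted p = 4.27e-11, edgeR) and by 1.06 ± 0.09 SE at 72 h (adjusted p = 8.14e-12, edgeR) relative to the TMM-scaled total of a mouse, while the 43 members rose at 48 h and had no call at 72 h. Its UMIs per cell were taken from its CPM and the total UMIs of a mouse. They therefore carry the TMM factor, unlike the per-cell counts of the 43 genes. By this measure Pttg1 lay at 0.629, 0.894 and 1.03 UMIs per cell in treated and 0.67, 0.858 and 1.01 in untreated mice at 48 h. These ranges overlapped, as the total UMIs per cell were higher in treated mice. At 72 h it lay at 0.252, 0.414 and 0.528 UMIs per cell in treated and 0.664, 0.776 and 1.07 in untreated mice, without overlap. In the CDK2 sort it moved with the members by a smaller difference, at 42.2, 46.8 and 52.6 CPM in CDK2-high and 27.9, 31.8 and 40 CPM in CDK2-low cells (0.50 ± 0.05 SE, adjusted p = 5e-10, edgeR). By the per-cell measure the sorted populations overlapped, at 0.443 to 0.639 UMIs in CDK2-high and 0.346 to 0.607 in CDK2-low cells. In the first experiment it lay at 76.3 to 141 CPM in treated and 114 to 129 CPM in untreated mice at day 10 and was not called (-0.14, adjusted p = 0.803, edgeR). The labels do not give the genotype of the donor cells of each time-course mouse, and its part in the Pttg1 differences was not tested.

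In the first experiment, with 3 mice a group, no member was called between day 7 and day 10 in untreated mice, where 0.65% of all 9078 genes were, nor between treated and untreated mice at day 10, where 1.95% were. edgeR gave 1 and 4 members at an unadjusted p under 0.05, a threshold at which all genes were not counted. DESeq2 called 0 members in both, where it called 27 and 38 of 9078 genes higher and 15 and 62 lower. The median log2 differences were 0.04 and 0.07, and the 95% intervals of the members reached from -0.73 to 0.63 and from -0.49 to 0.75. The largest difference between treated and untreated mice was that of Aurka, at 44.2, 49 and 59.5 CPM in the treated, mCherry-low cells and 14.2, 39.1 and 44.4 CPM in untreated ones (0.43 ± 0.17 SE, adjusted p = 0.238, edgeR). Plk1 lay at 81.4, 102 and 109 CPM against 68.3, 69.4 and 96.5 CPM (0.21 ± 0.12 SE, adjusted p = 0.542, edgeR), with overlap for both genes.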

How the data were processed

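UMI counts per gene and cell were used as deposited by the authors, who made them from 5′ libraries (kit v2 or v3) and did not normalize them. The submitters' processing notes name Cell Ranger 6.0.1, Seurat 5.1.0 and mm39, while per the file headers Cell Ranger was 7.1.0 for the first experiment and 8.0.1 for the other pools. Mouse and group came from the authors' list of hashtags, with days 7, 9 and 10 read as 0 h, 48 h and 72 h.

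Hashtags with at least 10000 UMIs were called with HTODemux in Seurat 5.3.0 (quantile 0.99), and cells with tags of more than 1 mouse were left out. Doublets within a mouse were not searched for. A cell had to show 200 genes or more and less than 10% of its UMIs on mitochondrial genes, and 3114 cells of the smaller and 350 of the larger experiment failed the latter. Counts were summed per mouse, the replicate of all tests, and fitted over all genes with edgeR 4.0.16 in R 4.3.3 (filterByExpr, TMM, quasi-likelihood test, all time-course groups with a term for the experiment, or a mouse term in the CDK2 sort, and Benjamini-Hochberg adjustment over all genes at 0.05). An SE is the log2 difference divided by the square root of F. CPM values use the library size of a mouse scaled by its TMM factor, while percentages of UMIs use the unscaled total.

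Mice sorted into CDK2-high and CDK2-low cells are the same animals in both lists. Deviations from the population means correlated at 0.179 to 0.529 within the 7 pairs, each above that sample's highest correlation with another mouse (0.0548 to 0.189), so the mouse was kept as a block.

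Phase classes came from CellCycleScoring in Seurat with the 24 members among its G2-M genes removed. The scoring was run separately on the time course, the sort and the first experiment. Class shares were compared with exact permutation tests, two-sided, adjusted over 18 tests. The genes named are the most abundant member of each role and the 3 members with the largest rises and falls past the threshold of each comparison, and others are named for their role or as exceptions. Members, roles and lists were chosen with earlier results of these data known. The scripts were tested on simulated data. Alternatives were DESeq2 1.42.0, no low-count or cell filter, no experiment or mouse term, the groups compared alone, each experiment alone, each mouse left out in turn in the sort and the first experiment, B1-8hi cells, cells above in dark-zone markers, thinned cells, phase lists with the members kept in and other hashtag calls. Figures were drawn with matplotlib 3.10.9 under Python 3.11.15.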

Additional observations from a re-analysis of the deposited data

Results flagged for a closer look

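In 6 of 126 groups of 4 to 10 mice or samples tested, 1 value stood apart from the rest by its gap to the nearest other, where chance gives about 1 in 20 groups. Cdca8 lay at 160 CPM in 1 mouse at 0 h against 232 to 288 CPM in the other 8. The share of cells in the G0-G1 class at 0 h was 68.6% in 1 mouse against 37.8% to 51% in the others. That mouse held 312 cells against 330 to 944 in the others, and its summed markers lay at 491 CPM against 254 to 361 CPM for naive and memory B cells, 1030 CPM against 647 to 847 CPM for the light zone and 4410 CPM against 2790 to 4090 CPM for GC B cells. In the sort, Knl1 lay at 104 CPM in 1 CDK2-low sample against 88.5 to 93 CPM, and Mki67 at 532 CPM against 392 to 435 CPM. In CDK2-high samples, Cenpe lay at 692 CPM in 1 mouse against 563 to 613 CPM and Aurka at 91.2 CPM in 1 mouse against 72.2 to 78.8 CPM.

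The effect of treatment differed between 48 h and 72 h for 41 of the 43 members by the test of the interaction. On the log2 scale the effect at 48 h minus that at 72 h was 0.74 for Plk1, 0.71 for Cenph, 0.70 for Nuf2, 0.70 for Aurka and 0.66 for Bub1. It was 0.57 for Mki67, 0.55 for Ube2c, 0.52 for Sgo2a, 0.50 for Ect2 and 0.49 for Tpx2. It was smallest among the genes described in full for Cdca8 at 0.47, Knl1 at 0.42, Cenpf at 0.38, Cenpe at 0.36 and Bub3 at 0.34.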

How the results depend on the processing

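No result past its threshold changed direction under the alternatives run. In the smaller experiment alone, 18 members were called at 48 h and 5 in the interaction, and without the experiment term 16 were called in the interaction, where over all genes the calls higher in the interaction fell from 1887 to 784. Class shares in the smaller experiment alone moved the same way, but there the smallest exact p is 0.1 and the adjusted p was 0.2, with -27.7 (48 h) and 22.7 points (treated 72 h against 48 h) in G0-G1, 16.4 and -12.6 in S, and 11.3 and -10.2 in G2-M. In the sort 43 members were called under each alternative, at a median of 3.0 without the mouse block, 3.31 with thinned cells and 2.95 to 3.04 with each mouse left out, where 3250 of 9397 genes were higher with thinned cells, 3426 of 9776 in B1-8hi cells and 3532 to 3683 with each mouse left out. Without the block no call of the 15 genes described in full changed, while over all genes 3440 were higher and 3612 lower, against 3690 and 3906 with it. In the first experiment 0 members were called under each alternative, with medians of -0.04 to 0.06 and 0.03 to 0.13 with each mouse left out, and 34 members could be tested in B1-8hi cells. Few genes of any kind were called there. In B1-8hi cells, 11 of 3317 genes were higher with treatment and 16 lower, and 1 was higher between day 7 and day 10. With each mouse left out, 24 to 92 genes were higher with treatment and 31 to 143 lower, and 5 to 45 and 2 to 38 between the days. Among the genes named, 42 values lost their call, of which 22 did so in the smaller experiment alone and 12 without the experiment term. The depth of the first experiment and its small groups of mice limit what it can show, and their separate parts were not tested. Replicates within a time-course group span 2 pools.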
